A study of Homo sapiens with 60 samples.

Results

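The 45 genes described here encode RNA polymerase I with its initiation factors and the nucleolar proteins that process, modify and assemble ribosomal RNA. They are a list of gene symbols, drawn up with earlier results of these data known, and all 45 were found among the 60675 gene IDs of the table and lay above the filter that left 16022 genes to test. They were measured by mRNA sequencing in HT29, an established line of human colorectal cancer cells. The cells had been kept for 24 h with a 70% ethanol extract of 1 of 6 herbs, or of the formulas Yijung-tang or Banhasasim-tang. Coptidis Rhizoma was given at 320, 64 and 12.8 µg/mL as high, medium and low dose, and Bupleuri Radix at 310, 62 and 12.4 µg/mL. Zizyphi Fructus, Citri Unshius Pericarpium, Cimicifugae Rhizoma, Aconiti Lateralis Radix Preparata, Yijung-tang and Banhasasim-tang were given at 500, 100 and 20 µg/mL. A dose of Coptidis Rhizoma, of Zizyphi Fructus or of Yijung-tang had 2 libraries, a dose of Banhasasim-tang had 1, and all other doses had 3. Vehicle, with 3 libraries, was DMSO, at 0.1% per the sample labels and 2% per the series design. The labels number the extracts' libraries in 4 sets (11 with Coptidis Rhizoma and Zizyphi Fructus, 12 with Citri Unshius Pericarpium and Cimicifugae Rhizoma, 13 with Bupleuri Radix and Aconiti Lateralis Radix Preparata, 14 with both formulas), and vehicle in a set of its own. Outliers with little RNA had been excluded by the authors, per the series design.

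RNA polymerase I transcribes the ribosomal DNA repeats in the nucleolus into a long precursor. Small nucleolar RNPs of the box C/D class guide methylation and those of the box H/ACA class guide pseudouridylation of that precursor, and large assemblies of processing factors cut and fold it into the small and large ribosomal subunits. Many genes of this machinery are known targets of the transcription factor MYC, and cancer cells such as those of the colon often run it at a high rate. The mRNA libraries show the transcripts of these factors, not ribosomal RNA or protein.

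The 60 libraries held 18.1 to 36.7 M counts, with a median of 24.1 M, and a floor of 3 counts was worth 0.0817 to 0.166 CPM. No member was at 0 in any library. Levels are given as CPM (counts relative to library size, scaled by TMM so that most genes match between libraries), and since they are shares of bulk RNA, fewer cells and less RNA per cell cannot be told apart. Markers of colonic epithelium were present in every library (KRT8 1874 to 7441 CPM, VIL1 85.9 to 205 CPM), although CDX1 had a median of only 1.10 CPM. Of 9 markers of leukocytes, fibroblasts, endothelium and hepatocytes, PTPRC was at 0 in 43, CD3E in 56, COL1A2 in 55, ALB in 53, PDGFRB in 32 and VWF in 29 of 60 libraries. CD14, PECAM1 and COL1A1 were at 0 in no library, at 1.11 to 4.76, 0.154 to 2.51 and 0.829 to 2.22 CPM in that order, and the 9 together came to 3.90 to 8.44 CPM. Replicate 3 of Zizyphi Fructus at medium dose stood apart, with 41.8% of its counts from the mitochondrial genome. The common coefficient of variation between replicates in the fit was 7.83% with it and 4.6% without it, and counts of calls are given with and without it where it changes them. Leaving it out also raised the share of all genes called between high and low dose of Coptidis Rhizoma and of Bupleuri Radix. For other comparisons that share is not given, so more member calls without it are no stronger result for the members. Nothing in the labels says that replicates were separate cultures, so p-values measure only the spread between these libraries.

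In vehicle-treated cells the members differed widely in level. Per kb of exon, NPM1 was highest at 375 CPM per kb, followed by FBL at 156 and NCL at 154 CPM per kb. That length takes in every annotated exon of a gene, whether or not the cells use it, so orders between genes depend on it. NPM1 and NCL encode nucleophosmin and nucleolin, abundant nucleolar proteins, and FBL encodes fibrillarin, the methyltransferase of box C/D RNPs. The lowest was UTP15, a small-subunit processing factor, at 5.33 CPM per kb, and the Pol I subunits POLR1A and POLR1C stood at 11.4 and 6.81 CPM per kb. The levels of FBL and NCL lie closer together than the spread of FBL over the vehicle libraries (340 ± 27 CPM, SD, n = 3), so that their order is not resolved.

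At high dose of Coptidis Rhizoma, some transcripts in each role of this machinery were lower, while a few members were higher. Against the low dose of the same extract, 23 of 45 members were lower and 4 were higher by edgeR's quasi-likelihood test with adjusted p under 0.05. Over all tested genes 28.4% were lower and 27.8% were higher, 56.2% in either direction, and the median log2 change was -0.25 for the members and -0.02 for all genes. The share of members called in either direction (27 of 45) was thus near that of all genes, whereas the split between lower and higher was not even. The excess of lower calls did not come from every role. Of 12 small-subunit factors 3 were lower, and of 4 helicases 1, near the 28.4% of all genes. The high-dose libraries lay below both low-dose libraries in 31 members and above both in 11, where 41.6% of all genes lay below and 40.1% above. In 23 members the high-dose libraries were below every other library of the series once the Zizyphi Fructus library named above was left out (24.2% of all genes), and in 19 with it kept (17.9%). Together the 45 transcripts took 0.566 and 0.570% of counts at high dose, against 0.642 and 0.667% at low dose and 0.720 to 0.735% in vehicle. These totals include mitochondrial genes, with 3.86 and 3.66% of counts at high dose, 15.5 and 14.3% at low dose and 7.84 to 9.10% in vehicle. How much of the lower share at low dose than in vehicle comes from the mitochondrial genes was not tested.

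**Figure D1:**
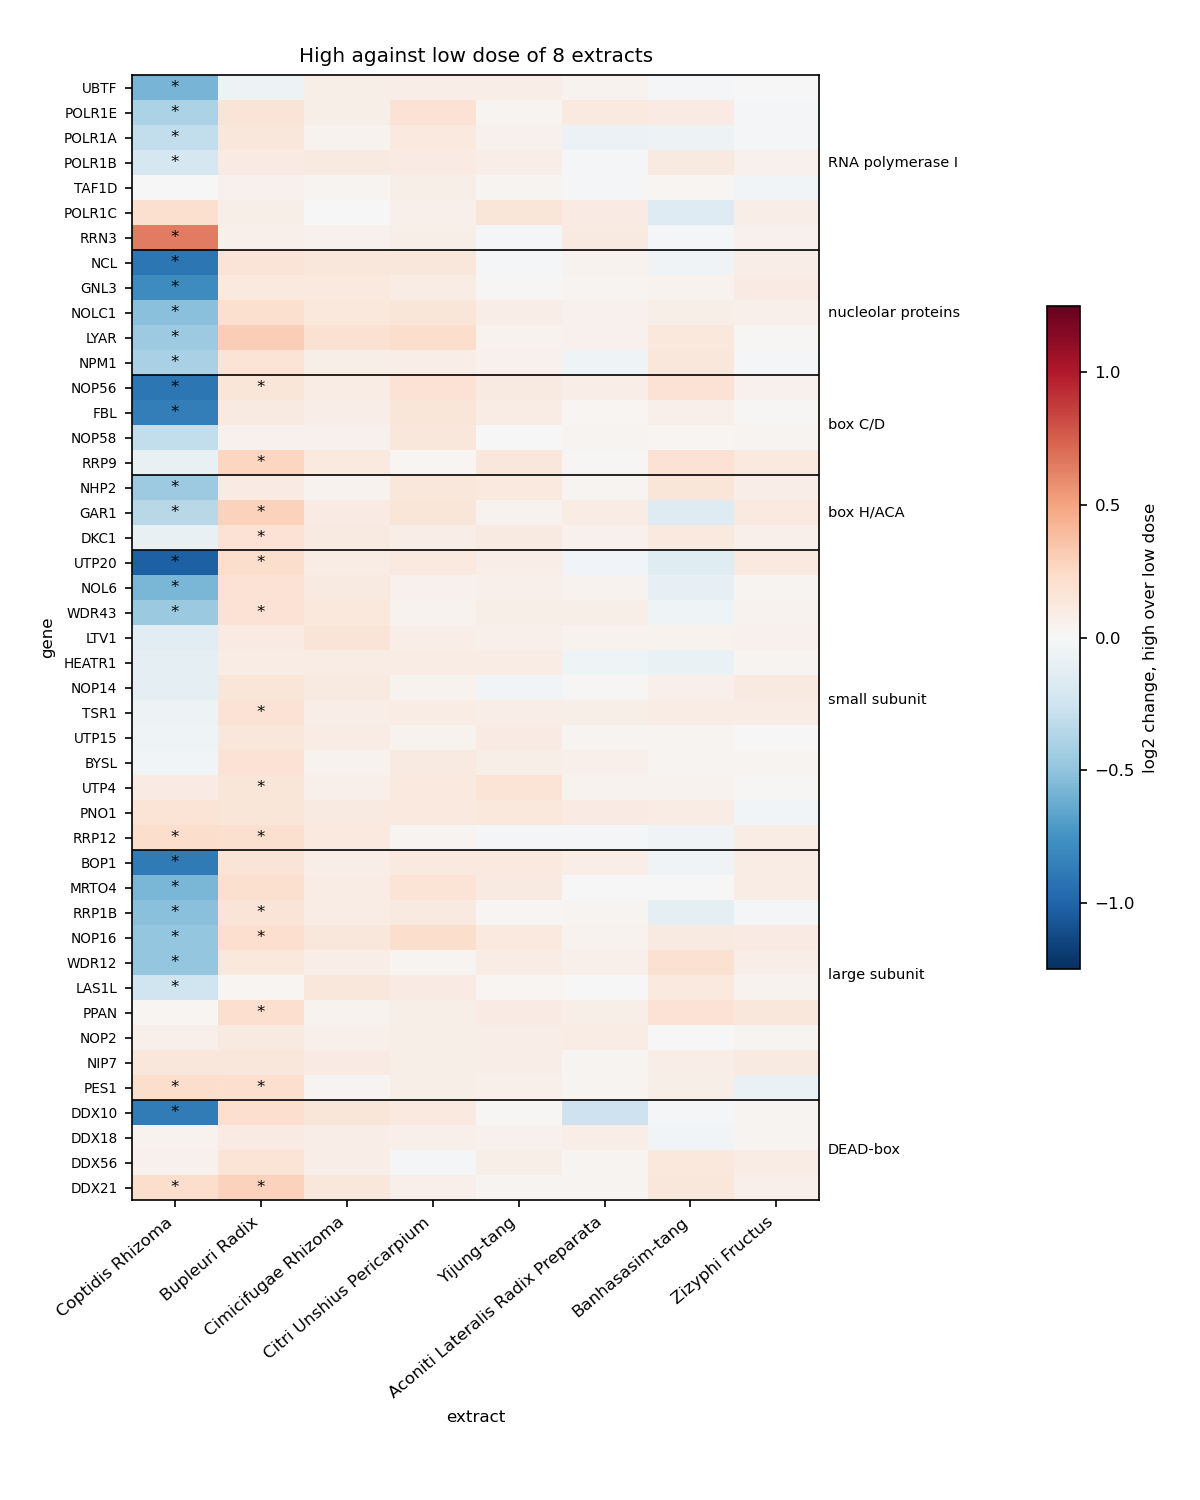
Log2 change of each member (rows, grouped by role and ordered by the change with Coptidis Rhizoma) from high over low dose of each extract (columns), with colour from blue (lower) to red (higher) and a star where adjusted p is under 0.05. Coptidis Rhizoma has 27 stars, 23 of them on lower genes, Bupleuri Radix has 14, all on higher genes, and the other columns have none.

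Among the genes of RNA polymerase I, the factor that binds and opens the ribosomal DNA and the factor that recruits the enzyme to it moved in opposite directions. UBTF (ENSG00000108312, GRCh38 chromosome 17, 44205033 to 44221626), an HMG-box protein that marks active ribosomal DNA, had 64.0 and 67.9 CPM at high dose, against 98.8 and 98.4 CPM at low dose. This was a log2 change of -0.58 ± 0.094 (SE, adjusted p = 1.5e-06). Its high-dose libraries lay below both low-dose libraries, as in 41.6% of all genes. RRN3 (ENSG00000085721, chromosome 16, 15060022 to 15094317), which links the polymerase to its promoter factors, had 154 and 161 CPM at high dose, against 98.4 and 103 CPM at low dose. The change was 0.65 ± 0.097 on the log2 scale (adjusted p = 3.0e-07), and in the high-dose libraries RRN3 lay above all other libraries. Leaving out the Zizyphi Fructus library that stood apart, which had 60.6 CPM of RRN3, this held for 2 of 45 members and 25.5% of all genes. Of the polymerase subunits, POLR1E (-0.40), POLR1A (-0.31) and POLR1B (-0.21) were lower by log2 change, each past the threshold with TMM. Scaled to library totals, the 3 stood at -0.27, -0.18 and -0.08 and none passed (adjusted p 0.238, 0.316 and 0.657). POLR1C, a subunit shared with RNA polymerase III, stood at 0.20 (adjusted p = 0.0763) and passed without the Zizyphi Fructus library (0.21, adjusted p = 0.00918), and TAF1D, of the promoter factor SL1, stood at 0.00.

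Reads of RRN3 can be shared with its near-identical copies elsewhere in the genome. Of 4 copies listed, 2 passed the filter, and their levels are given as CPM of library totals. RRN3P1 was higher by 0.53 on the log2 scale, with 14.2 CPM at high dose, and RRN3P3, with 12.1 CPM at high and 14.2 CPM at low dose, was lower by log2 change (-0.36). All 4 summed to 26.5 CPM at high and 23.2 CPM at low dose, a difference far smaller than that of RRN3 itself. NPM1 has many processed copies as well, of which 49 were listed with a sum of 7.81 CPM at high and 11.7 CPM at low dose. PPAN shares exons with a read-through gene, which was at 0 CPM in both groups.

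All 5 nucleolar proteins outside the complexes fell. NCL (ENSG00000115053, chromosome 2, 231453531 to 231483641) had 510 and 525 CPM at high dose, against 925 and 1004 CPM at low dose, a log2 change of -0.90 ± 0.17 (adjusted p = 2.2e-05). Its standard error was 0.17 with the Zizyphi Fructus library that stood apart, which had 2558 CPM of NCL, and 0.052 without it. GNL3 (chromosome 3, 52681156 to 52694492), which encodes nucleostemin, a GTP-binding protein of dividing cells, had 50.1 and 49.4 CPM at high dose, against 83.4 and 88.8 CPM at low dose (-0.79 ± 0.10 on the log2 scale, adjusted p = 2.2e-08). NOLC1, a chaperone of small nucleolar RNPs, changed by -0.52, LYAR, a nucleolar zinc finger protein, by -0.45 and NPM1 by -0.41 on the log2 scale. In all 5 the high-dose libraries lay below both low-dose libraries, where 41.6% of all genes did.

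**Figure D2:**
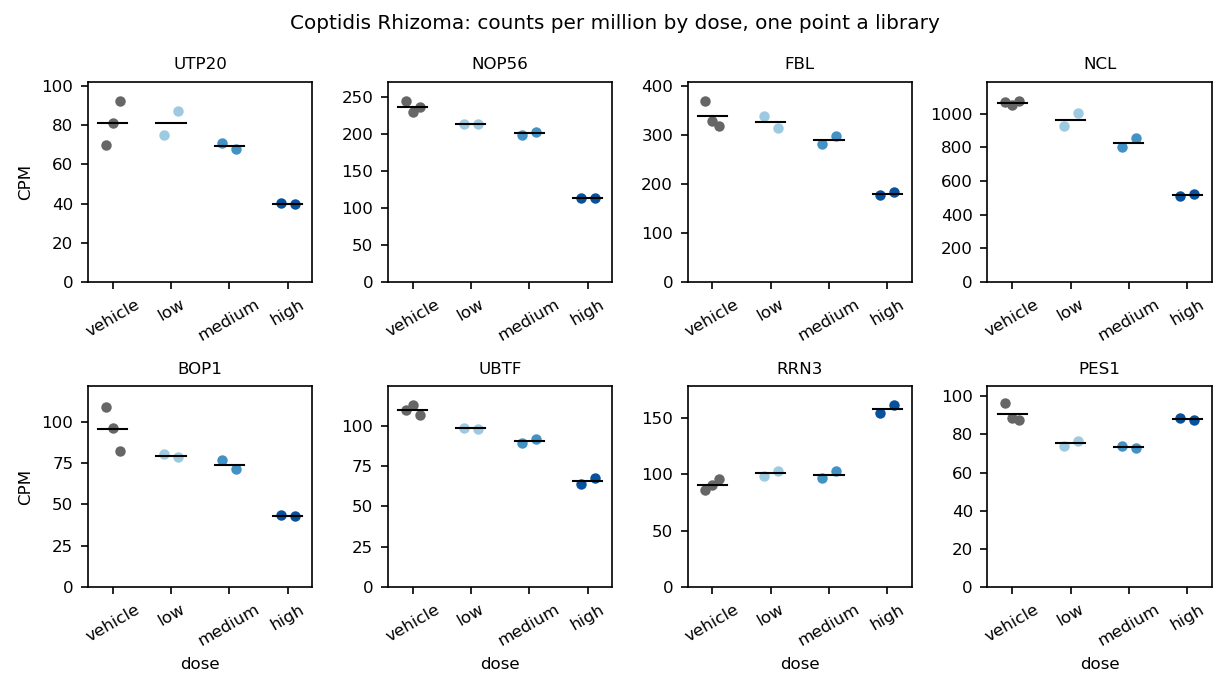
CPM of 8 members in vehicle and at low, medium and high dose of Coptidis Rhizoma, with 1 point per library (n = 3 for vehicle and 2 for each dose), a bar at the mean and each vertical axis starting at 0. UTP20, NOP56, FBL, NCL, BOP1 and UBTF are lowest at high dose, whereas RRN3 stands at 154 and 161 CPM there, above all other points of its panel.

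In the box C/D RNP, the methyltransferase and a scaffold protein fell together. NOP56 (ENSG00000101361, chromosome 20, 2652145 to 2658393), a scaffold on which the RNP is built, had 113 and 114 CPM at high dose, against 213 and 213 CPM at low dose. The change of -0.90 ± 0.064 on the log2 scale had the smallest adjusted p of all members, 1.2e-15. FBL (chromosome 19, 39834458 to 39846414) had 178 and 184 CPM at high dose, against 340 and 315 CPM at low dose, a log2 change of -0.86 ± 0.076 (adjusted p = 8.9e-13). NOP58, the partner of NOP56 in the RNP, stood at -0.31 ± 0.19 (adjusted p = 0.160) and passed without the Zizyphi Fructus library (-0.30 ± 0.069, adjusted p = 2.3e-04). RRP9, found only in the U3 RNP, stood at -0.09 ± 0.082 (adjusted p = 0.374). The box H/ACA RNP showed smaller values: NHP2 stood at 77.1 and 79.9 CPM at high dose, against 110 and 104 CPM at low dose, and GAR1 at 29.1 and 28.0 CPM, against 35.7 and 37.2 CPM. Their log2 changes were -0.45 ± 0.18 and -0.35 ± 0.13, with adjusted p of 0.0280 and 0.0165. The call of NHP2 was lost without any 1 of the 4 libraries (adjusted p 0.0576 to 0.128) and that of GAR1 without either high-dose library or low-dose replicate 3 (0.0601 to 0.108). DKC1, the pseudouridine synthase of this RNP, stood at -0.09 ± 0.065 (adjusted p = 0.226) and passed without the Zizyphi Fructus library (-0.09 ± 0.038, adjusted p = 0.0448). NHP2 and GAR1 kept their calls without that library (adjusted p 1.1e-05 and 1.4e-04). With library totals GAR1 passed (adjusted p = 0.0275) and NHP2 did not (adjusted p = 0.317).

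The small-subunit factors were split, with 3 lower, 1 higher and 8 not past the threshold. UTP20 (ENSG00000120800, chromosome 12, 101280109 to 101386616), a very large scaffold of the small-subunit processome, showed the greatest change of any member. It had 40.2 and 39.7 CPM at high dose, against 75.1 and 87.0 CPM at low dose, a log2 change of -1.02 ± 0.089 (adjusted p = 5.1e-13) and a fold of 0.493. NOL6 (chromosome 9, 33461441 to 33473930), also of the processome, had 62.2 and 66.3 CPM at high dose, against 95.5 and 95.6 CPM at low dose, a change of -0.57 ± 0.088 (adjusted p = 4.5e-07). WDR43, which binds the processome early, changed by -0.46. HEATR1, UTP15, UTP4 and NOP14, further processome members, stood at -0.11, -0.05, 0.10 and -0.11, none past the threshold. RRP12, which helps export the small-subunit precursor, had 79.0 and 84.4 CPM at high dose, against 69.4 and 70.9 CPM at low dose, higher by 0.22 ± 0.066 on the log2 scale (adjusted p = 0.00441). BYSL, LTV1, PNO1 and TSR1, which act late on the precursor, stood between -0.13 and 0.17 with no call. PNO1 (0.18, adjusted p = 0.00296) and UTP4 (0.11, adjusted p = 0.0465) were also higher without the Zizyphi Fructus library, which made 3 lower and 3 higher.

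Within the PeBoW complex of the large-subunit pathway, the 3 partners did not change alike. BOP1 (ENSG00000261236, chromosome 8, 144262102 to 144291370) had 43.6 and 42.6 CPM at high dose, against 80.1 and 78.5 CPM at low dose, a log2 change of -0.88 ± 0.14 (adjusted p = 6.8e-07). WDR12 changed by -0.48 ± 0.064 (adjusted p = 2.4e-08). PES1 (chromosome 22, 30576625 to 30607083) had 88.5 and 87.5 CPM at high dose, against 74.2 and 76.8 CPM at low dose, a change of 0.22 ± 0.058 (adjusted p = 0.00123). All 3 had high-dose libraries clear of the low-dose ones, BOP1 and WDR12 below and PES1 above. Of all genes 41.6% lay below and 40.1% above in this way. PES1 had 87.6 to 96.3 CPM in vehicle, so that its high dose was close to the lower end of vehicle and its low dose lay under it. MRTO4 (chromosome 1, 19251539 to 19260128), which holds the place of the ribosomal stalk protein during assembly, had 57.6 and 57.7 CPM at high dose, against 88.4 and 83.0 CPM at low dose (-0.57 ± 0.090, adjusted p = 7.5e-07). RRP1B, NOP16 and LAS1L were also lower (-0.52, -0.48 and -0.25), whereas NOP2, a ribosomal RNA methyltransferase, NIP7 and PPAN stood between 0.02 and 0.14 with no call. NIP7 passed without the Zizyphi Fructus library (0.15, adjusted p = 0.0141), and NOP2 passed with library totals (0.19, adjusted p = 0.0226).

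Of the 4 DEAD-box helicases, 1 fell and 1 rose. DDX10 (chromosome 11, 108665025 to 108940930) had 31.5 and 31.5 CPM at high dose, against 55.2 and 60.1 CPM at low dose, a log2 change of -0.87 ± 0.20 (adjusted p = 2.0e-04). DDX21 (chromosome 10, 68956128 to 68985073), which works both in ribosomal RNA processing and with RNA polymerase II, had 468 and 461 CPM at high dose, against 398 and 402 CPM at low dose. Its rise of 0.22 ± 0.087 (adjusted p = 0.0323) was not past the threshold without any 1 of the 4 libraries (adjusted p 0.0627 to 0.101). DDX21 passed without the Zizyphi Fructus library (0.22, adjusted p = 2.3e-06) and with library totals (0.35, adjusted p = 2.7e-07). DDX18 and DDX56 stood at 0.04 and 0.05.

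With Coptidis Rhizoma, the group means of 28 of 45 members fell in order over low, medium and high dose, and those of 3 rose in order. The share of all genes in such an order is not given, so these counts cannot be set against a background. NCL averaged 964 ± 56, 829 ± 38 and 517 ± 10 CPM at low, medium and high dose (SD, n = 2 each), and NOP56 213 ± 0.54, 200 ± 2.4 and 114 ± 0.73 CPM. RRN3 averaged 101 ± 3.3, 99.8 ± 4.7 and 158 ± 4.5 CPM, with no step before the high dose. Between medium and low dose edgeR called 0 of 45 members, with 6 at an unadjusted p under 0.05, all lower, where 1.35% of all genes were called and 8.94% had such a p. DESeq2 also called 0, and edgeR called 2, both lower, without the Zizyphi Fructus library. The members' median log2 change there was -0.09.

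The share of mitochondrial RNA moved with dose as well. Ribosomal RNA of the mitochondrial genome made up 1.56 to 1.64% of counts at high dose of Coptidis Rhizoma, against 9.79 to 10.5% at low dose. In vehicle it made up 1.07 to 1.15%, so the low dose was further from vehicle than the high dose. The library of Banhasasim-tang at high dose also had 10.2%. With all mitochondrial genes left out before scaling, the same numbers of members were called, 23 lower and 4 higher. Scaled to library totals without TMM, the median of all genes shifted to 0.11, and 18 members were lower and 5 higher. The shares of all genes called lower and higher under that scaling are not given, so these counts have no background. No called member changed sign under that scaling, 22 of the 27 calls were kept, and those of POLR1A, POLR1B, POLR1E, NHP2 and LAS1L were lost. The members' median was then -0.12. The median of the small-subunit factors alone changed sign, being -0.08 with TMM and 0.05 with library totals. Without the Zizyphi Fructus library, all 27 calls were kept and 25 members were lower and 8 higher, against 31.8% of all genes lower and 31.9% higher, 63.6% in either direction.

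Against vehicle, the high dose of Coptidis Rhizoma had 28 members lower and 3 higher (RRN3, TAF1D and POLR1C), where 32.0% of all genes were lower and 30.9% higher, 62.9% in either direction. The vehicle libraries form a library set of their own, so a difference from vehicle and one between sets cannot be told apart. BOP1 averaged 43.1 ± 0.73 CPM at high dose (SD, n = 2) and 95.7 ± 13 CPM in vehicle (SD, n = 3), which differed by -1.15 on the log2 scale, and MRTO4 57.7 ± 0.13 CPM, against 121 ± 21 CPM in vehicle, a change of -1.07. NOP56 (-1.05), NCL (-1.04), UTP20 (-1.02) and DDX10 (-1.01) were lower by similar sizes on the log2 scale. RRN3 averaged 158 ± 4.5 CPM, against 90.6 ± 4.9 CPM in vehicle, a change of 0.80. The median log2 change was -0.36 over the members and -0.02 over all genes. Leaving out the Zizyphi Fructus library gave 30 members lower and 3 higher, with no share of all genes given for that fit.

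Zizyphi Fructus shares the library set of Coptidis Rhizoma and showed no call among these genes from low to high dose. The difference between the extracts in that change was tested as an interaction, which passed for 23 members: 21 with a lower and 2 with a higher change for Coptidis Rhizoma. Of all genes 42.9% passed this test, 21.8% lower and 21.0% higher. Without replicate 3 of Zizyphi Fructus at medium dose, 26 members had a lower and 4 a higher change, with no share of all genes to compare. UTP20 differed by -1.14 ± 0.12 (adjusted p = 4.5e-10), NOP56 by -0.96 ± 0.090 (adjusted p = 1.0e-11) and BOP1 by -0.97 ± 0.19 (adjusted p = 6.3e-05) on the log2 scale. RRN3 differed by 0.60 ± 0.14 (adjusted p = 4.3e-04) and PES1 by 0.31 ± 0.082 (adjusted p = 0.00228). High and low dose were 320 and 12.8 µg/mL of Coptidis Rhizoma but 500 and 20 µg/mL of Zizyphi Fructus.

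Of 84 further ribosome biogenesis genes, 27 were lower and 20 higher between high and low dose of Coptidis Rhizoma, with a median log2 change of -0.01, where 28.4% of all genes were lower and 27.8% higher. The share called among them was 56.0%, near that of all genes. Among the further Pol I genes, POLR1G, a Pol I subunit, had 33.2 and 33.2 CPM at high dose, against 67.5 and 73.2 CPM at low dose (-1.08 ± 0.090, adjusted p = 1.5e-13). TCOF1, which encodes treacle, a nucleolar partner of UBTF, had 69.8 and 69.4 CPM, against 130 and 137 CPM (-0.94 ± 0.077, adjusted p = 1.0e-13). TBP, which serves all the nuclear polymerases, was higher by 0.35. Of the large-subunit list, 11 of 34 were lower and 11 higher, led by the GTPase GNL2 (-1.34), the helicase DDX54 (-0.69) and RSL24D1 (0.78), an assembly factor akin to a ribosomal protein. Of the small-subunit list, 9 of 31 were lower and 6 higher, with PDCD11 and NOC4L at -0.61 each and IMP3 at -0.60. Of the snoRNP list, 4 of 9 were lower and 1 higher, among them SHQ1 (-0.59) and NOP10 (-0.35), which serve the box H/ACA RNP, and ZNHIT6 (0.47), which helps assemble the box C/D RNP.

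Of 21 Pol III genes, 6 were lower and 7 higher at high dose of Coptidis Rhizoma, with POLR3C at 1.16, POLR3K at -0.85 and POLR3G at -0.82 on the log2 scale. Of 78 ribosomal protein genes, 2 were lower and 5 higher, 8.97% in all where 56.2% of all genes were called. RPL3 changed by -0.43 and RPS13 by 0.40. Ribosomal protein genes have many near-identical copies in the genome, so their counts are less certain.

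MYC, whose product activates many of these genes, had 121 and 128 CPM at high dose of Coptidis Rhizoma, against 207 and 206 CPM at low dose, a log2 change of -0.73 ± 0.066 (adjusted p = 1.5e-12). MXD1, which encodes an antagonist that competes for the partner MAX, averaged 74.3 ± 1.0 CPM at high and 32.2 ± 1.5 CPM at low dose (SD, n = 2 each), higher by 1.20 ± 0.16 (adjusted p = 2.7e-08). MAX was higher by 0.89 and MXD3, a relative of MXD1, was lower by log2 change (-0.87). In the MYC network as listed, 6 of 11 tested genes were lower and 4 higher. Whether the change of MYC bears on the 45 genes was not tested.

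Promoter sequences show the letters that MYC and MAX bind near the starts of several members. RefSeq promoters (GRCh38.p14, from 250 bases before to 50 after a gene's start) were given for 38 of the 45. The E-box CACGTG, which reads the same on both strands, was in 13 of them (34.2%). Among other tested genes it was in 1094 of 10971 promoters (9.97%), and among all promoters, tested or not, in 2548 of 35116 (7.26%). Its first base lay from 16 bases before to 35 bases after the annotated start in all 13. Within 40 bases of the start, a distance chosen after the positions were seen, 34.2% of member promoters held one, against 3.28% of the promoters of 10971 other tested genes. The GC box GGGCGG, searched on both strands, was in 26 of 38 (68.4%), against 45% of all promoters, and CCAAT in 16 (42.1%), against 34.6%. For the GC box and CCAAT the share among other tested genes is not given. Matches of different motifs may share bases, and each motif was counted on its own. The windows below run from 250 bases before to 30 after the start, 5′ to 3′ on the gene's strand, with the E-box in capitals. They are shown for 4 genes that fell at high dose of Coptidis Rhizoma and hold the motif, UTP20 (chr12:101279855-101280134, plus strand), FBL (chr19:39846350-39846629, minus strand), MRTO4 (chr1:19251555-19251834, plus strand) and NOL6 (chr9:33473895-33474174, minus strand), and for RRN3 (chr16:15094306-15094585, minus strand), which rose and whose window has no such letters.
UTP20: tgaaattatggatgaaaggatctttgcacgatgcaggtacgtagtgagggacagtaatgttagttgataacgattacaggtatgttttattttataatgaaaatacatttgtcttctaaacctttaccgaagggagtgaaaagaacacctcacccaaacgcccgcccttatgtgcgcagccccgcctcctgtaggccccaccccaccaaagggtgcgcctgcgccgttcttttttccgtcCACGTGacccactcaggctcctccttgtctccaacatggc
FBL: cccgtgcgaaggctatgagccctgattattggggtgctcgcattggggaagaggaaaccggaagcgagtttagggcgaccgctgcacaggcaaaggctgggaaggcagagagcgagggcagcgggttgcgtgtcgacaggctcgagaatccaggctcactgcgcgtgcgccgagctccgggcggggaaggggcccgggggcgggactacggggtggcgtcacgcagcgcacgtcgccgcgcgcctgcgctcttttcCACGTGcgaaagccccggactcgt
MRTO4: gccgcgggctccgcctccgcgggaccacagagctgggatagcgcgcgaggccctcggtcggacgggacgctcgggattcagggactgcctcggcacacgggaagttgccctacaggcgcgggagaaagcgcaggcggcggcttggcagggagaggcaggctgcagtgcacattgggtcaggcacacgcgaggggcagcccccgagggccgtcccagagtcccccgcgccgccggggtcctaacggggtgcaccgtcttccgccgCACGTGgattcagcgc
NOL6: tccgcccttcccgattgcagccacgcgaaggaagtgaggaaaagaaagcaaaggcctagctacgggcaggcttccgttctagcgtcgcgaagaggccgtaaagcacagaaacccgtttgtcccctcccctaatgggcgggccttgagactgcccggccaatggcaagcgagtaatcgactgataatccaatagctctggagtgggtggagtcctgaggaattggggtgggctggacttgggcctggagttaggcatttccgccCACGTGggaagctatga
RRN3: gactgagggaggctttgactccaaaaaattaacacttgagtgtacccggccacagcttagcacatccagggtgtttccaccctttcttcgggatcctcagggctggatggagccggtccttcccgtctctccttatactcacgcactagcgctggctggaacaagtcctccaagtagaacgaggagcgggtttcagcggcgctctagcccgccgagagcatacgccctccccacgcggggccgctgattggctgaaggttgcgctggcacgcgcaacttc

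By the call for Coptidis Rhizoma, the E-box was in 5 of the 19 promoters of genes that were lower, in 1 of the 3 of genes that were higher and in 7 of the 16 of genes with no call. PES1, with an E-box, was higher, and NCL and NOP56, whose log2 decreases were the greatest after UTP20, hold none in this window.

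**Figure D3:**
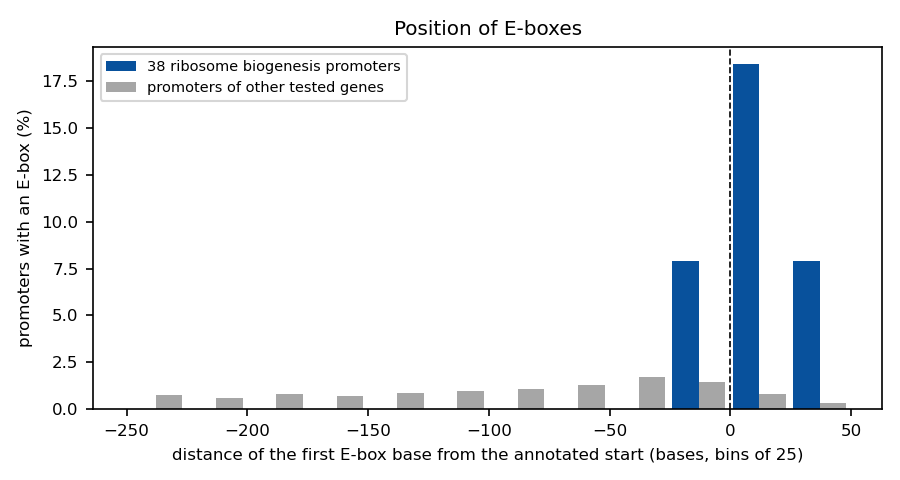
Share of promoters whose first E-box base falls in each bin of 25 bases before or after the annotated start, for the 38 member promoters (blue) and 10971 promoters of other tested genes (grey). Member E-boxes lie in the 3 bins from 25 bases before to 50 after the start, with 18.4% in the first bin after it.

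At high dose of Bupleuri Radix, members of 5 of the 7 roles were higher by small amounts. From low to high dose 14 of 45 members were higher and 0 lower, where 6.34% of all genes were higher and 6.59% lower, 12.9% in either direction. At an unadjusted p under 0.05, 25 members were higher and 0 lower, where 24.0% of all genes had such a p in either direction. DESeq2 called 16 higher and 0 lower, where it called 13.3% of all genes. The change was above 0 in 44 members, with a median of 0.16 on the log2 scale, against -0.01 for all genes. The group means rose in order over low, medium and high dose in 39, a count with no share of all genes to compare. With the Zizyphi Fructus library that stood apart left out, 33 members were higher, among them all 14, where 11.8% of all genes were higher and 10.8% lower, 22.6% in either direction. The 3 members with the largest changes past the threshold were DDX21, GAR1 and RRP9.

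DDX21 had 497, 508 and 506 CPM at high dose of Bupleuri Radix, against 413, 418 and 407 CPM at low dose, a log2 change of 0.29 ± 0.071 (adjusted p = 0.00364). RRP9 had 41.6, 43.0 and 44.9 CPM, against 35.7, 35.3 and 36.0 CPM, a change of 0.27 ± 0.066 (adjusted p = 0.00276). GAR1 had 44.8, 44.4 and 43.8 CPM, against 34.8, 39.4 and 34.5 CPM, a change of 0.29 ± 0.10 (adjusted p = 0.0488). None of the 3 overlapped between the doses. They were picked for changes past the threshold, and the share of all genes without overlap is not given, so this adds little to the calls. The call of GAR1 was lost without any 1 high-dose library, or the first or the third low-dose library (adjusted p 0.0936 to 0.172), and RRP9 was not past the threshold with library totals (adjusted p = 0.361). Without the Zizyphi Fructus library GAR1 (adjusted p = 2.3e-04) and RRP9 (adjusted p = 6.0e-05) passed, and GAR1 passed with library totals (adjusted p = 0.0209).

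By role, the calls with Bupleuri Radix were 5 of 12 small-subunit factors, 4 of 10 large-subunit factors, 2 of 4 box C/D proteins, 2 of 3 box H/ACA proteins and 1 of 4 helicases. No gene of RNA polymerase I or of the 5 nucleolar proteins was called, with medians of 0.07 and 0.17. All 5 nucleolar proteins were higher once the Zizyphi Fructus library was left out: LYAR by 0.31 (adjusted p = 4.5e-05), NOLC1 by 0.20 (adjusted p = 2.5e-07), NPM1 by 0.17 (adjusted p = 0.00368), NCL by 0.16 (adjusted p = 0.00430) and GNL3 by 0.12 (adjusted p = 0.0401) on the log2 scale. POLR1E was then the 1 called gene of RNA polymerase I (0.16, adjusted p = 0.0364), beside 10 small-subunit factors, 8 large-subunit factors, 3 box C/D proteins, 2 box H/ACA proteins and 4 helicases. UBTF was the single member below 0, at -0.06, with 96.8, 97.7 and 101 CPM at high dose, against 98.0, 101 and 109 CPM at low dose, so that its groups overlapped. TSR1 (0.18 ± 0.040, adjusted p = 0.00113) and PES1 (0.21 ± 0.047, adjusted p = 0.00123), picked after their values were seen, had the smallest adjusted p.

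**Figure D4:**
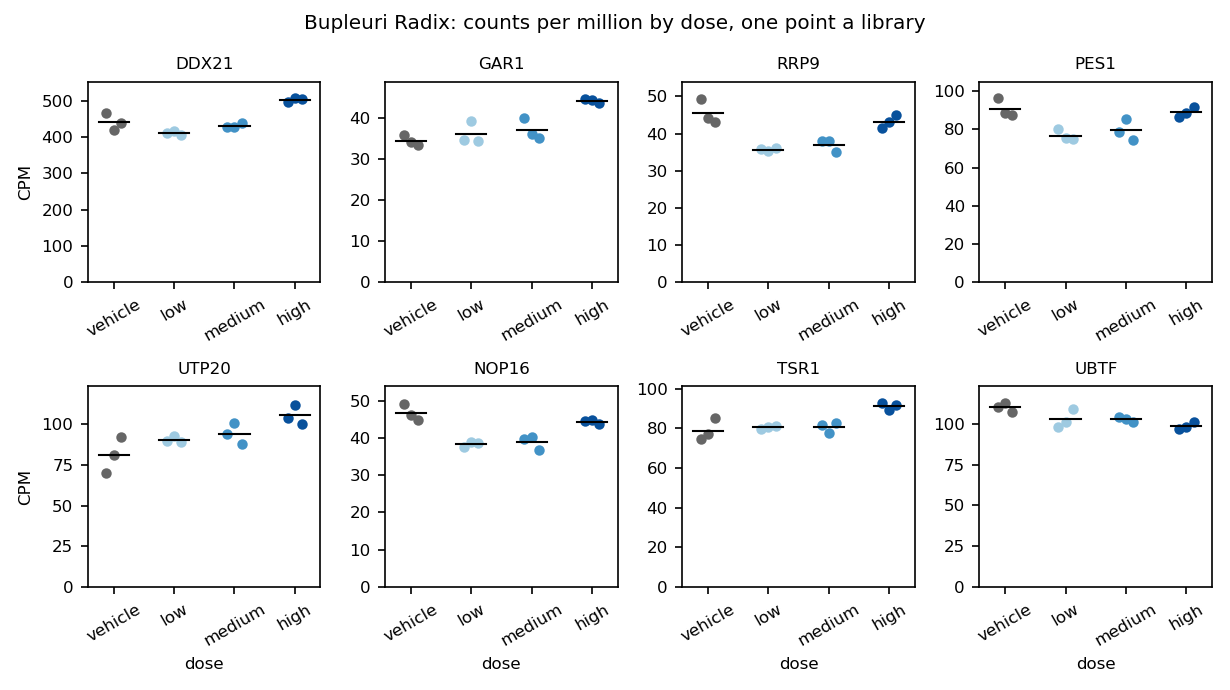
CPM of 8 members in vehicle and at low, medium and high dose of Bupleuri Radix, with 1 point per library (n = 3 each), a bar at the mean and each vertical axis starting at 0. The high-dose points of DDX21, at 497 to 508 CPM, lie above all others of the panel, and those of RRP9, at 41.6 to 44.9 CPM, lie above low dose and overlap vehicle.

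The number of calls with Bupleuri Radix depended on single libraries. It was 9, 7 and 11 without the first, the second or the third high-dose library, and 5, 12 and 9 without the first, the second or the third low-dose library, always with 0 lower. With library totals it was 4, of which DDX21 and GAR1 were among the 14 and NOLC1 and LYAR were not, and the members' median was 0.10, against -0.06 for all genes. With no filter on low counts it was 5, and with the compared groups fitted alone 33. Between medium and low dose edgeR and DESeq2 called 0 members, as edgeR did among all genes (0%), and 0 had an unadjusted p under 0.05, where 2.76% of all genes did.

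Against vehicle, 12 members were higher and 1 lower at high dose of Bupleuri Radix, where 14.3% of all genes were higher and 12.7% lower, 27.0% in either direction. The largest of these log2 changes were those of UTP20 (0.38) and GAR1 (0.36), while MRTO4 was the lower one (-0.29). RRP9, by contrast, averaged 43.2 ± 1.7 CPM at high dose and 45.6 ± 3.3 CPM in vehicle, with no call. Without the Zizyphi Fructus library 16 were higher and 5 lower, with no share of all genes to compare.

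Of the 84 further genes of the pathway, 12 were higher and 0 lower with Bupleuri Radix, with a median of 0.10, where 6.34% of all genes were higher and 6.59% lower. Among the 12 was TCOF1 (0.23 ± 0.062, adjusted p = 0.00819). MYC had 287, 263 and 267 CPM at high dose, against 228, 236 and 239 CPM at low dose, a log2 change of 0.22 ± 0.053 (adjusted p = 0.00354). Of 78 ribosomal protein genes, 0 were called and the median was 0.01.

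Aconiti Lateralis Radix Preparata, which shares the library set of Bupleuri Radix, had 0 members called between its doses. The difference between the extracts in the change between high and low dose was above 0 in 42 of 45 members, with a median of 0.12, but edgeR called 0 of them, where 8.52% of all genes passed. At an unadjusted p under 0.05 there were 10 of 45, near the 19.7% of all genes. DESeq2 called 3, where it called 9.28% of all genes, and edgeR called 9 without the Zizyphi Fructus library and 14 with the compared groups fitted alone. RRP9 came nearest, with a difference of 0.27 ± 0.094 (adjusted p = 0.0734), and DDX21 differed by 0.26 ± 0.10 (adjusted p = 0.107).

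The remaining extracts gave no call among the 45 genes between high and low dose in edgeR. Over all genes the share called was 0.874% for Cimicifugae Rhizoma, 0.144% for Citri Unshius Pericarpium, 0.206% for Yijung-tang, 2.71% for Aconiti Lateralis Radix Preparata, 1.73% for Banhasasim-tang and 0% for Zizyphi Fructus. At an unadjusted p under 0.05 there were 4 members for Cimicifugae Rhizoma, 9 for Citri Unshius Pericarpium, 1 for Yijung-tang, 1 for Banhasasim-tang and 0 for the others, all higher. The share of all genes with such a p was 7.43% for Cimicifugae Rhizoma, 6.55% for Citri Unshius Pericarpium, 6.05% for Yijung-tang, 8.88% for Banhasasim-tang, 11.0% for Aconiti Lateralis Radix Preparata and 2.07% for Zizyphi Fructus. DESeq2 called 2 for Citri Unshius Pericarpium, where it called 0.449% of all genes, and 0 for each of the others. The log2 changes were mostly above 0: in 45 of 45 members for Cimicifugae Rhizoma, 44 for Citri Unshius Pericarpium, 41 for Yijung-tang, 37 for Zizyphi Fructus, 36 for Aconiti Lateralis Radix Preparata and 29 for Banhasasim-tang. Their medians were 0.09 for Cimicifugae Rhizoma and Citri Unshius Pericarpium, 0.07 for Yijung-tang, 0.05 for Zizyphi Fructus and 0.04 for Aconiti Lateralis Radix Preparata and Banhasasim-tang, where the median of all genes was between 0.00 and 0.01 in size. NOP16, a large-subunit factor, had the smallest p for Citri Unshius Pericarpium, at 0.22 ± 0.057 with an adjusted p of 0.100, a gene picked after its values were seen. Leaving out the Zizyphi Fructus library, 5 members were higher for Citri Unshius Pericarpium, 4 for Cimicifugae Rhizoma and 1 for Aconiti Lateralis Radix Preparata, where 1 was lower.

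**Figure D5:**
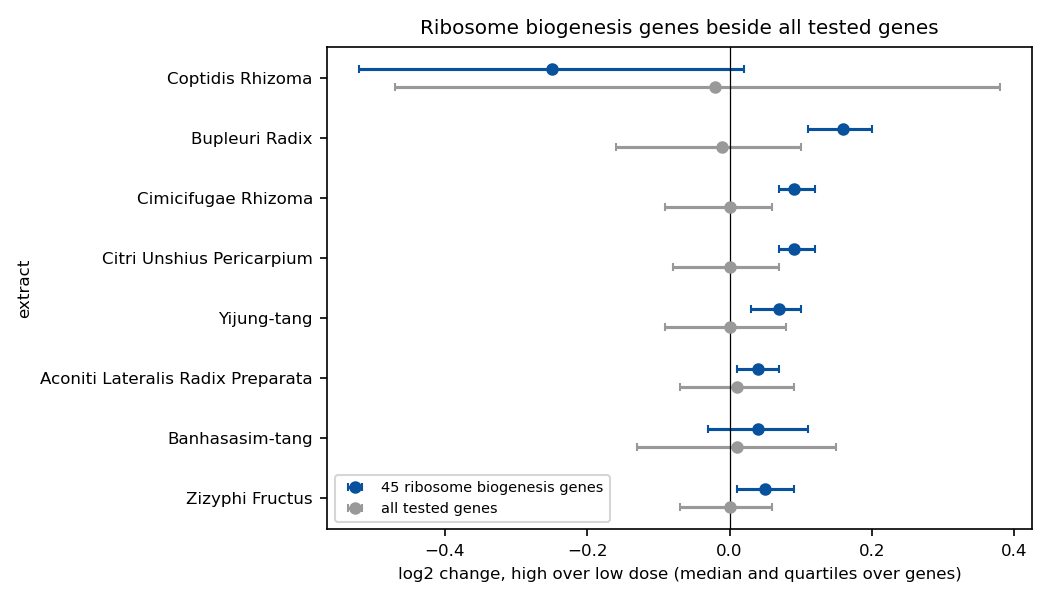
Median log2 change from high over low dose of each extract, with bars from the 25th to the 75th percentile over genes, for the 45 members (blue) and all 16022 tested genes (grey). The members' median is -0.25 for Coptidis Rhizoma and 0.16 for Bupleuri Radix, and it lies between 0.04 and 0.09 for the other 6 extracts.

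Of the differences between extracts of a library set, those of Cimicifugae Rhizoma minus Citri Unshius Pericarpium and of Banhasasim-tang minus Yijung-tang had 0 members called by edgeR, 0 by DESeq2 and 0 at an unadjusted p under 0.05, where 0.200% and 0.462% of all genes were called and 3.70% and 5.02% had such a p. Their medians were -0.01 each.

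At the lowest dose some members were called against vehicle for every extract, more often lower than higher. Each dose of Banhasasim-tang is 1 library, so its calls take the spread from the other groups and assume that this library varies like them. The counts of lower and higher members were 13 and 1 for Aconiti Lateralis Radix Preparata (6.26% and 8.22% of all genes), 9 and 4 for Bupleuri Radix (5.99% and 8.49%), 9 and 1 for Cimicifugae Rhizoma (5.58% and 7.98%) and 9 and 1 for Citri Unshius Pericarpium (5.99% and 8.14%). They were 6 and 1 for Yijung-tang (3.34% and 4.27%), 5 and 1 for Coptidis Rhizoma (2.29% and 3.83%), 4 and 1 for Zizyphi Fructus (2.30% and 3.74%) and 4 and 0 for Banhasasim-tang (1.19% and 2.03%). All 8 comparisons use the same 3 vehicle libraries, so they are not independent of each other, and extract and library set cannot be told apart. MRTO4 had log2 changes of -0.43 (Banhasasim-tang) to -0.56 (Zizyphi Fructus) at low dose against vehicle, and it had 146, 110 and 107 CPM in vehicle. Without the first vehicle library the calls in either direction numbered 5 for Aconiti Lateralis Radix Preparata, 5 for Bupleuri Radix, 3 for Cimicifugae Rhizoma, 3 for Citri Unshius Pericarpium, 3 for Yijung-tang, 4 for Coptidis Rhizoma, 3 for Zizyphi Fructus and 0 for Banhasasim-tang. Without the Zizyphi Fructus library they numbered 18 to 29, with no shares of all genes to compare.

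At high dose against vehicle, the extracts other than Coptidis Rhizoma and Bupleuri Radix had between 2 and 10 members called. Cimicifugae Rhizoma had 7 higher and 3 lower (10.3% and 7.70% of all genes), Citri Unshius Pericarpium 4 and 3 (7.61% and 5.60%) and Yijung-tang 2 and 2 (4.66% and 2.98%). Aconiti Lateralis Radix Preparata had 1 higher and 7 lower (9.35% and 7.96%), Zizyphi Fructus 1 and 3 (4.38% and 2.53%) and Banhasasim-tang 1 and 1 (4.94% and 2.67%). For Cimicifugae Rhizoma the higher genes were POLR1B, TAF1D, UTP15, UTP20, WDR43, HEATR1 and TSR1, by 0.12 to 0.26 on the log2 scale. Without the Zizyphi Fructus library the calls of these 6 extracts numbered 13 to 24. Without the first vehicle library they numbered 4 for Cimicifugae Rhizoma, 1 for Citri Unshius Pericarpium, 1 for Yijung-tang, 5 for Aconiti Lateralis Radix Preparata, 1 for Zizyphi Fructus and 1 for Banhasasim-tang.

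The medium dose of Zizyphi Fructus is the case where 1 library decides the result. Against low dose, 14 members were higher and 5 lower, where 18.7% of all genes were higher and 12.8% lower, 31.4% in either direction. NCL had 928 and 2558 CPM in the medium-dose libraries, against 935 and 979 CPM at low dose, and BYSL had 38.1 and 9.90 CPM, against 34.1 and 37.7 CPM. Replicate 2 of the medium dose lay close to low dose in both genes, and replicate 3 was far from it in both. Without replicate 3, 0 members were called. Members made up 0.541% of the counts of replicate 3 and 0.692% of those of replicate 2. For the extracts other than Zizyphi Fructus and Coptidis Rhizoma the medium dose gave 0 calls against low dose in edgeR and in DESeq2, where 0.0250% of all genes were called for Banhasasim-tang, 0.00624% for Cimicifugae Rhizoma and 0% for the rest. At an unadjusted p under 0.05 there were 0 to 2 members: 2 for Aconiti Lateralis Radix Preparata (2.35% of all genes), 2 for Citri Unshius Pericarpium (4.44%) and 0 for Cimicifugae Rhizoma (2.25%), Yijung-tang (2.25%), Banhasasim-tang (2.03%) and Bupleuri Radix.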

How the data were processed

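The authors deposited 1 table of expected counts per gene, which need not be whole (91.0% of the values were whole), for which the submitters' processing notes name STAR 2.7.3a, RSEM 1.3.3, FastQC 0.11.9 and Trim Galore 0.6.5 with GRCh38. Their gene annotation is not stated. Of its 270 columns, 210 were not used. Expected counts were rounded (totals changed by at most 0.00022%), and genes with at least 0.5 CPM in 3 libraries were kept. edgeR's quasi-likelihood test (edgeR 4.0.16, R 4.3.3, limma 3.58.1) was run with TMM scaling on 25 group means over all 60 libraries, with Benjamini-Hochberg adjustment over all 16022 genes. DESeq2 1.42.0 was an alternative, beside library totals, no filter, no mitochondrial genes, a replicate block, the compared groups alone and each replicate left out. The fit was tested on simulated data. Members, lists and the rule for named genes were chosen with earlier results of these data known. That rule took, for Coptidis Rhizoma between high and low dose, up to 2 genes of each of 7 roles with the greatest changes past the threshold and those past it against the majority. It took up to 3 genes in each direction for other extracts, 3 of each further list, and MYC. Other genes are named to complete their roles, after their values were seen. Replicate numbers did not pair libraries (correlations of deviations from -0.09 to 0.13). Gene positions and exon lengths are from GENCODE 29, which held 94.0% of the IDs, and promoters from RefSeq. The value of 1 gene that the rule for named genes would have named is not reported here.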

Additional observations from a re-analysis of the deposited data

Results flagged for a closer look

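The change between high and low dose of Coptidis Rhizoma differed from that of Zizyphi Fructus, in the same library set, for 23 of the 45 members by edgeR's quasi-likelihood interaction test, 21 with a lower and 2 with a higher value for Coptidis Rhizoma. Of all genes, 42.9% passed that test. Without any 1 library of the compared groups, 18 to 21 members passed, and without replicate 3 of Zizyphi Fructus at medium dose 30 did.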

How the results depend on the processing

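Counts below are of the 45 members called in either direction by edgeR unless another tool is named, and the cause of the shifts was not tested. The replicate block was the replicate number within a library set for comparisons between doses or extracts, and the replicate number alone against vehicle. With it no count moved by over 1.5 times (28 for high against low dose of Coptidis Rhizoma, 14 for Bupleuri Radix). Of the named genes' values under the alternatives, 194 kept direction and side of the threshold, 21 were no longer past it and 0 reversed. High against low dose: Aconiti Lateralis Radix Preparata had 1 with no filter, 1 with the compared groups alone and 2 without replicate 3 of Zizyphi Fructus at medium dose. Bupleuri Radix had 4 with library totals, 5 with no filter, 33 with the compared groups alone, 33 without that library and 5 to 12 without single replicates. Citri Unshius Pericarpium had 2 by DESeq2, 2 with the compared groups alone and 5 without that library, and Cimicifugae Rhizoma had 4 without it. The difference between Bupleuri Radix and Aconiti Lateralis Radix Preparata had 3 by DESeq2, 1 with no filter, 14 with the compared groups alone and 9 without that library. Medium against low dose: Coptidis Rhizoma had 2 with the compared groups alone and 2 without that library, and Zizyphi Fructus 33 with library totals, 0 with the compared groups alone, 0 without that library and 12 to 37 without the other replicates.

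High dose against vehicle: DESeq2 called 17 for Aconiti Lateralis Radix Preparata (18.1% of all genes), 5 for Banhasasim-tang (8.24%) and 7 for Yijung-tang (9.16%). Library totals gave 5 for Cimicifugae Rhizoma, 2 for Citri Unshius Pericarpium, 1 for Yijung-tang and 1 for Zizyphi Fructus. The compared groups alone gave 5 for Cimicifugae Rhizoma, 3 for Citri Unshius Pericarpium and 0 each for Banhasasim-tang, Yijung-tang and Zizyphi Fructus. Without the Zizyphi Fructus library the counts were 24 for Aconiti Lateralis Radix Preparata, 13 for Banhasasim-tang, 21 for Bupleuri Radix, 22 for Cimicifugae Rhizoma, 17 for Citri Unshius Pericarpium, 16 for Yijung-tang and 16 for Zizyphi Fructus. Without single replicates they ran from 5 to 12 for Aconiti Lateralis Radix Preparata, 1 to 3 for Banhasasim-tang, 4 to 13 for Cimicifugae Rhizoma, 1 to 10 for Citri Unshius Pericarpium, 0 to 9 for Yijung-tang and 1 to 7 for Zizyphi Fructus.

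Low dose against vehicle: library totals gave 5 for Aconiti Lateralis Radix Preparata, 0 for Banhasasim-tang, 3 for Bupleuri Radix, 3 for Cimicifugae Rhizoma, 4 for Citri Unshius Pericarpium, 2 for Yijung-tang and 2 for Zizyphi Fructus. For Zizyphi Fructus DESeq2 called 8, where it called 7.53% of all genes. The compared groups alone gave 7 for Bupleuri Radix, 4 for Cimicifugae Rhizoma and 0 each for Banhasasim-tang, Coptidis Rhizoma, Yijung-tang and Zizyphi Fructus. Without the Zizyphi Fructus library the counts were 29 for Aconiti Lateralis Radix Preparata, 19 for Banhasasim-tang, 27 for Bupleuri Radix, 26 for Cimicifugae Rhizoma, 24 for Citri Unshius Pericarpium, 22 for Coptidis Rhizoma, 18 for Yijung-tang and 23 for Zizyphi Fructus. Without single replicates they ran from 5 to 15 for Aconiti Lateralis Radix Preparata, 0 to 5 for Banhasasim-tang, 5 to 14 for Bupleuri Radix, 3 to 14 for Cimicifugae Rhizoma, 3 to 14 for Citri Unshius Pericarpium, 2 to 6 for Coptidis Rhizoma, 1 to 7 for Yijung-tang and 2 to 8 for Zizyphi Fructus. The compared groups alone could not be fitted for the doses of Banhasasim-tang, which has 1 library each. Depth sets a floor of 0.0817 to 0.166 CPM, far below every member.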
